A study of Mus musculus with 4 samples.

Results

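The 7 genes described here belong to the transcriptional programme that makes fat cells and were chosen by symbol: Pparg, Cebpa, Cebpb, Cebpd, Klf15, Ebf1 and Ebf2. All 7 were found among the 32285 genes of the RNA matrices. They were measured in nuclei from the floating, fat-rich layer of mouse tissue with 10x droplet assays. One RNA library came from thymi pooled from 6 males at 4 months of age, and 1 from epigonadal white adipose tissue, the fat pad beside the gonads, of males of that age. A chromatin library, which maps open DNA by transposase insertion, came from thymi pooled from 16 females at 6 months. Per the labels, all samples were WT and naive, and the thymic donors were C57/BL6 mice fed standard chow. How many animals gave the epigonadal library is not stated in the labels. Each tissue and assay was 1 library, so no difference has a replicate check or a test. Intervals are 95% intervals of counting error only.

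PPARG is the nuclear receptor without which fat cells do not form, and it binds DNA together with a retinoid X receptor. In the textbook cascade, CEBPB and CEBPD come first, they switch on PPARG and CEBPA, and these maintain each other and the genes of lipid storage. EBF1, EBF2 and KLF15 act beside them, and EBF2 is known as a factor of brown and beige fat and of their precursors. PPARG is also made in capillary endothelium of fat, heart and muscle, where it promotes fatty acid uptake, and EBF1 is a lineage factor of B cells.

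Pparg has alternative starts, and the downstream one gives the PPARG2 protein, which is largely restricted to fat cells. In RefSeq on build GRCm38.p6 the genes span chr6:115360879-115490404 (Pparg), chr7:35119293-35121928 (Cebpa), chr2:167688915-167690432 (Cebpb), chr16:15887286-15889545 (Cebpd), chr6:90461043-90491803 (Klf15), chr11:44618100-45008096 (Ebf1) and chr14:67233292-67430952 (Ebf2). RefSeq promoter sequences were matched for 5 of the 7. Start 3 of Pparg lies inside the gene, 60922 bp downstream of start 1. The 250 bases before the 3 starts of Pparg and before the start of Cebpa are shown because the accessibility at these starts is compared below. All 4 are on the + strand. Capitals mark matches, on either strand, to the C/EBP motif TTGCNNAA and to the GC box GGGCGG.
Pparg start 1, chr6:115360894-115361143: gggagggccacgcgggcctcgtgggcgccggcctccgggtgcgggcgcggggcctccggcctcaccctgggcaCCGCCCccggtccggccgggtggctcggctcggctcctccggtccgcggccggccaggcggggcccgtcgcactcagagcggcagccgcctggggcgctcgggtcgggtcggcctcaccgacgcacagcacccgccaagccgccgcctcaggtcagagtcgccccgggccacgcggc
Pparg start 2, chr6:115362099-115362348: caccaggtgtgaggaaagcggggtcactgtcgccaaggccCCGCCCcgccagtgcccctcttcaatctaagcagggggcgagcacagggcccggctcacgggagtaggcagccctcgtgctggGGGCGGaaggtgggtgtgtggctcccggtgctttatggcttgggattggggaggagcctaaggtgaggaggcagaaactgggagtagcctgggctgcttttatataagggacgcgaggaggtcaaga
Pparg start 3, chr6:115421816-115422065: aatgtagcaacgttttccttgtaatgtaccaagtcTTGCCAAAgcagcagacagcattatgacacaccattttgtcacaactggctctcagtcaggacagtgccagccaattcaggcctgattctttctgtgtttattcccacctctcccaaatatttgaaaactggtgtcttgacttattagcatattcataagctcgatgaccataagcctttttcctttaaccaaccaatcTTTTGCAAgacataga
Cebpa, chr7:35119043-35119292: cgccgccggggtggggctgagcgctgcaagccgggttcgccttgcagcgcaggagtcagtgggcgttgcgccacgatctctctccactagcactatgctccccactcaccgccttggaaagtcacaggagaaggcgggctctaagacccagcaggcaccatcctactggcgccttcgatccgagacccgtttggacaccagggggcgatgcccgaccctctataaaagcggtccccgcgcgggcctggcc
The window before start 3 of Pparg held 2 C/EBP matches, TTGCCAAA and, on the other strand, TTTTGCAA. Such a match was in 9.56% of 32851 promoter windows of the same length. This window was 40.8% GC, against 82.4% and 63.6% before starts 1 and 2, which held 1 and 2 GC boxes. GC boxes were in 32.7% of all windows. The PPAR direct repeat, 2 copies of AGGTCA separated by 1 base, was in 0.0335% of all windows and in none of the windows of these genes. The Cebpa window, 66.4% GC, held none of the motifs searched, and the EBF motif CCCNNGGG was in 1 window of these genes, that of Cebpb, and in 11.8% of all. A match is a description of letters and not of binding.

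In the RNA data the authors labelled 365 thymic and 1564 epigonadal nuclei under 5 names. Ad Ia held 35 thymic and 106 epigonadal nuclei, Ad Ib 49 and 152, Ad IIa 231 and 590, Ad IIb 16 and 58, and Ad IIc 34 and 658. Ad I below is Ad Ia and Ad Ib together. Expression is given as CPM, the UMIs (molecules counted) of a gene scaled to 1000000 nuclear-encoded UMIs of the same sum. The labels were checked against markers. In thymic Ad I, 14 adipocyte markers summed to 19123 CPM and 15 endothelial markers to 1512 CPM, with Tie1, Eng, Erg, Cldn5 and Vwf at 0. Of the 79 endothelial UMIs 77 were in Ad Ib, at 3132 CPM against 72.3 CPM in Ad Ia, and adipocyte markers were at 9804 and 27405 CPM. Thymic Ad IIa, Ad IIb and Ad IIc carried 13254.5, 13990 and 12163 CPM of endothelial markers and 962 to 1272 CPM of adipocyte markers. The data therefore go against an adipocyte label there, and these nuclei are called by their labels only. Epigonadal Ad IIa and Ad IIb also led with endothelial markers, at 10094 and 12150 CPM against 6931 and 3538 CPM of adipocyte markers. Epigonadal Ad IIc was the reverse, with 31922 CPM of adipocyte and 587 CPM of endothelial markers, so the label Ad IIc does not join like nuclei across tissues. The median nucleus had 500.5 UMIs in thymic Ad I and 1696 in thymic Ad IIa, and 744.5 and 1916 in the epigonadal labels.

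Pparg was highest in Ad IIa in both tissues, where endothelial markers led, and above the labels led by adipocyte markers. Epigonadal Ad IIa was not endothelial alone, since 468 of its 590 nuclei had 3 or more markers of both classes. In the thymic library its level was 1265 CPM in Ad Ia, 1587 CPM in Ad Ib, 2371 CPM in Ad IIa, 1925 CPM in Ad IIb and 1603 CPM in Ad IIc, from 35, 39, 952, 52 and 87 UMIs. Every pair of neighbours in that order of levels had overlapping intervals. In the epigonadal library Pparg was at 989 CPM in Ad Ia, 773 CPM in Ad Ib, 2012 CPM in Ad IIa, 1329 CPM in Ad IIb and 356 CPM in Ad IIc. There Ad IIa stood apart from Ad IIb by a log2 ratio of 0.60, and Ad Ib stood apart from Ad IIc, the lowest, by 1.12. The plot of RNA levels by label shows both profiles.

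**Figure D1:**
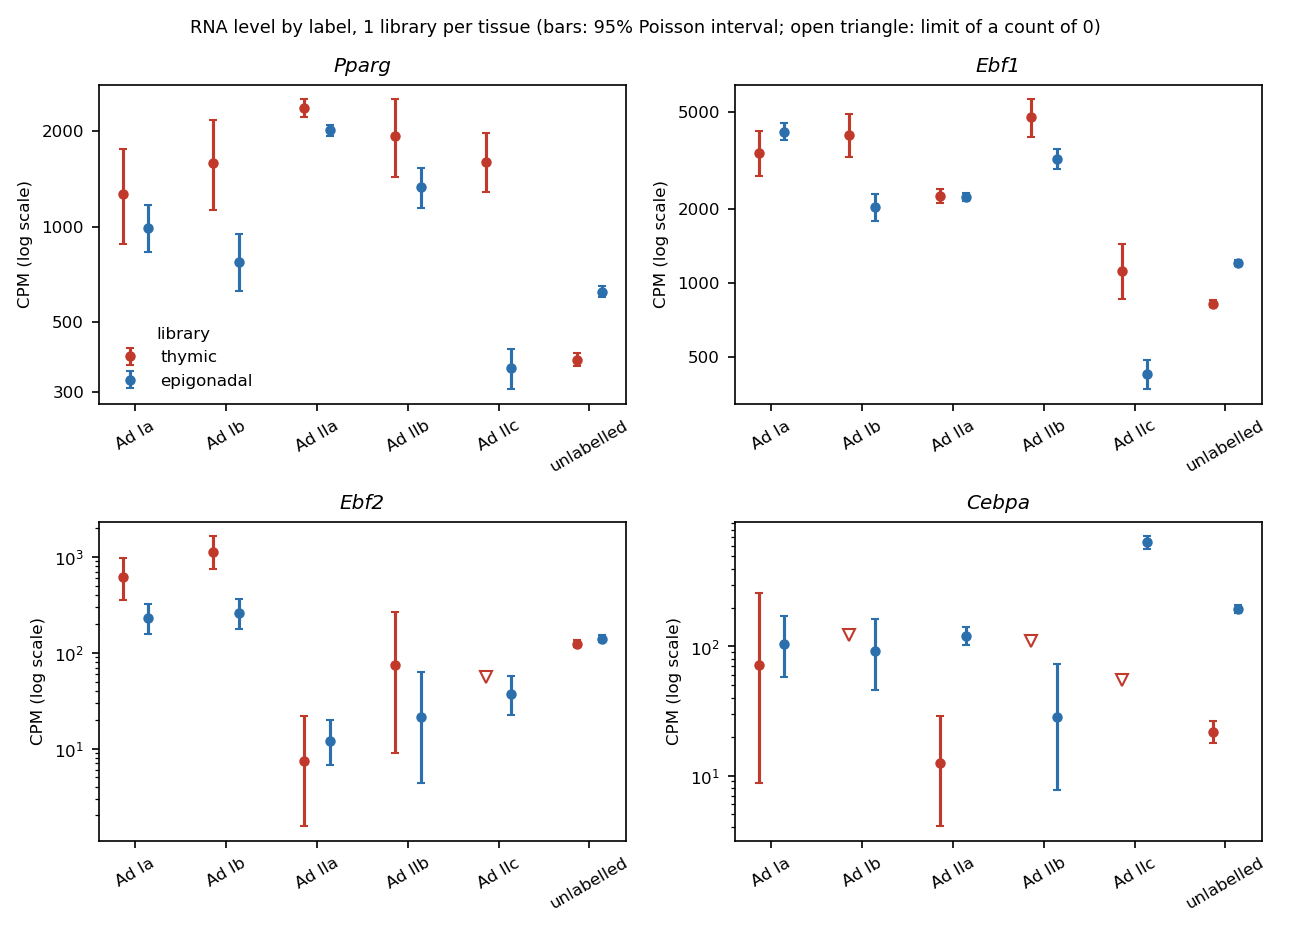
RNA level of Pparg, Ebf1, Ebf2 and Cebpa (CPM, log axis) in the 5 labels and in barcodes without a label, for both libraries. Points are sums over 1 library with 95% Poisson intervals and open triangles are the limit of a count of 0. Pparg peaks in Ad IIa in both libraries, at 2371 and 2012 CPM, Ebf2 drops between Ad I and Ad IIa, and Cebpa peaks in epigonadal Ad IIc at 641 CPM.

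Set against Ad I, thymic Pparg was 1.66-fold higher in Ad IIa (log2 0.73, 0.40 to 1.10). The epigonadal fold was 2.25 (log2 1.17, 0.98 to 1.37). The labels may rest on the same RNA, so contrasts between labels describe the labels. In nuclei with no UMI of the other class's markers, which kept 11 of 590 epigonadal Ad IIa nuclei, the epigonadal log2 ratio was 0.26. Of 3 of the genes with at least 10 UMIs over both thymic sums, 0 were more than 2-fold higher, where 28.2% of 6095 genes were, and 1, Ebf2, was more than 2-fold lower, where 20.2% were. Among epigonadal labels all 7 had 10 UMIs, and 1, Pparg, was past 2-fold upward, where 19.8% of 10064 genes were. Klf15 and Ebf2 were past it downward, where 17.5% were. Klf15 was at −1.46 (−2.77 to 0.04) from 14 against 8 UMIs, so its interval includes 0. Scaling by TMM put Pparg at 1.21 and 1.51, and moved the median of all genes by 0.48 and 0.34, in the thymic and epigonadal contrasts.

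The same ratio was taken for Ad IIb and Ad IIc. Pparg in thymic Ad IIb was at a log2 ratio of 0.45 over Ad I (−0.10 to 0.97), and in epigonadal Ad IIb at 0.58 (0.29 to 0.86). In thymic Ad IIc the ratio was 0.18 (−0.29 to 0.65). In epigonadal Ad IIc, which held the most adipocyte marker RNA, Pparg was lower than in Ad I by a log2 ratio of −1.32 (−1.61 to −1.04). Ribosomal protein RNA, mostly cytoplasmic, was at 84762 CPM in that label against 21118 CPM in epigonadal Ad I and 15927 to 38364 CPM in its other labels. In thymic Ad IIc it was 50919 CPM, against 12220 to 23296 CPM in the other thymic labels. The part of this RNA in the Ad IIc values of Pparg, Ebf1 and Cebpa was not tested.

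The share of nuclei with a Pparg UMI was read with depth in view. It was 52.4% of thymic Ad I nuclei (44 of 84) and 83.5% of thymic Ad IIa nuclei (193 of 231). The epigonadal shares were 48.4% (125 of 258) and 82.5% (487 of 590). Depth differs between these labels, so nuclei were thinned to 500 UMIs, leaving out shallower ones. The thymic shares were then 53.8% of 26 Ad I nuclei, with 58 left out, and 57.3% of 227 Ad IIa nuclei. Epigonadal nuclei gave 37.6% of 234 and 53.3% of 572. Thinned thymic shares were thus close together, and few thymic Ad I nuclei were deep enough to enter. Thinned to 1000 UMIs the thymic order turned, with 85.7% of 7 Ad I nuclei and 77.5% of 182 Ad IIa nuclei, while epigonadal nuclei gave 62.2% of 74 and 74.0% of 469. As a background for free RNA, unlabelled barcodes with 3 or more T-cell markers had a Pparg UMI in 2.96% of thymic barcodes, at a median depth of 764.5 UMIs, and in 9.73% of epigonadal barcodes, at 1096 UMIs. Thinned, those shares were 1.91% and 4.85%.

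In thymic Ad IIa, Pparg RNA was found in nuclei with endothelial markers and no detected adipocyte marker. Of the 193 Ad IIa nuclei with a Pparg UMI, 192 had 3 or more endothelial markers, and 63 of those had no adipocyte marker UMI at all. Of the 38 without a Pparg UMI, 36 had 3 or more endothelial markers, and 15 of those had no adipocyte marker UMI. The endothelial-only shares were 32.6% with and 39.5% without a Pparg UMI, so these counts describe the label and not nuclei with Pparg. In the 78 thymic Ad IIa nuclei with 3 or more endothelial and no adipocyte markers, Pparg was at 2685 CPM (2384 to 3015, 287 UMIs). In the 31 with 3 or more of both, it was at 2396 CPM from 189 UMIs. The 56 thymic Ad I nuclei with 3 or more adipocyte and no endothelial markers had 1327 CPM (968 to 1776, 45 UMIs). The interval for the endothelial-only nuclei lay wholly above that for the adipocyte-only nuclei.

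Epigonadal Ad IIa was more mixed. Of its 487 nuclei with a Pparg UMI, 467 had 3 or more endothelial markers, but 483 also had an adipocyte marker UMI. Of the 103 without a Pparg UMI these were 88 and 96. The 468 nuclei with 3 or more of both had 2039.8 CPM of Pparg. Only 9 nuclei had 3 or more endothelial and no adipocyte markers, and their 9 Pparg UMIs came to 1119 CPM (512 to 2124). That interval lay below the one of the thymic endothelial-only nuclei, 2384 to 3015. It overlapped that of epigonadal Ad I nuclei with 3 or more adipocyte and no endothelial markers, 861 CPM (688 to 1063). The interval of the 9 nuclei also held 2012 CPM, the level of all epigonadal Ad IIa nuclei. Their 9 UMIs thus do not tell the higher level from the lower one. Scaled to its T-cell markers, the profile of unlabelled barcodes was estimated at 32.0% of epigonadal and 5.30% of thymic Ad IIa UMIs. Its part in the epigonadal value was not tested. The profile includes 1756 thymic and 113 epigonadal barcodes led by T-cell markers, so it is not free RNA alone.

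Ebf1, which opens chromatin in B cells and in fat precursors, had UMIs in every label, in both tissues. Its thymic level was 3399 CPM in Ad Ia, 4027 CPM in Ad Ib, 2262 CPM in Ad IIa, 4737 CPM in Ad IIb and 1124 CPM in Ad IIc. Its epigonadal level was 4151, 2046, 2250, 3219 and 424 CPM in the same labels. Ad IIc, the label with the most ribosomal protein RNA, was the lowest in both tissues. Ad IIa over Ad I gave a thymic log2 ratio of −0.71 (−0.93 to −0.48) and an epigonadal ratio of −0.50 (−0.62 to −0.39), opposite in sign to Pparg. With TMM scaling these were −0.24 and −0.17, so the sign held and the size did not. Ebf1 also differed between epigonadal Ad Ia and Ad Ib, at a log2 ratio of 1.02 (0.80 to 1.24). Adipocyte markers were at 30022 and 17305 CPM in these labels, endothelial markers at 933 and 2353 CPM, and the unlabelled profile was estimated at 16.3% and 37.0% of UMIs. Their part was not tested. Ebf1 was the 1 of 5 members with 10 UMIs past 2-fold upward there, where 9.97% of 4763 genes were, and 0 were past it downward, where 9.38% were. In the thymic library 0 of 3 were past 2-fold, where 15.4% of 1022 genes were higher in Ad Ia and 13.6% lower.

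Ebf2 was the member most nearly limited to Ad I. Its thymic sums were 17 UMIs in Ad Ia (615 CPM), 28 in Ad Ib (1139 CPM), 3 in Ad IIa (7.47 CPM), 2 in Ad IIb and 0 in Ad IIc, where a count of 0 allows up to 55.3 CPM. The epigonadal levels were 229.8 and 258 CPM in Ad Ia and Ad Ib, and 12.1, 21.3 and 36.8 CPM in Ad IIa, Ad IIb and Ad IIc. The thymic log2 ratio of Ad IIa to Ad I was −6.64 (−9.18 to −5.21), where the lower sum holds 3 UMIs, and the epigonadal ratio −4.29 (−5.24 to −3.49). An Ebf2 UMI was in 40.5% of thymic Ad I nuclei and in 1.30% of thymic Ad IIa nuclei, and in 0.968% of the T-cell barcodes of that library. After thinning to 500 UMIs it was in 7 of 26 thymic Ad I nuclei and 0 of 227 Ad IIa nuclei. Thinned to 1000 UMIs it was in 0 of the 7 Ad I nuclei deep enough to enter and 2 of 182 Ad IIa nuclei, so the share does not show the difference at that depth.

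Cebpa, the C/EBP factor that sustains Pparg in mature fat cells, was close to its limit of detection in every thymic label. It had 2 UMIs in thymic Ad Ia, 5 in Ad IIa and 0 in Ad Ib, Ad IIb and Ad IIc. The zero in Ad Ib allows up to 122 CPM, above the epigonadal level in the same label. In the epigonadal library Cebpa was at 104.5 CPM in Ad Ia, 91.5 CPM in Ad Ib, 121 CPM in Ad IIa, 28.4 CPM in Ad IIb and 641 CPM in Ad IIc. Ad IIc stood apart from Ad IIa, the next highest, by a log2 ratio of 2.40, and from Ad I by 2.68 (2.13 to 3.34). That label also had the lowest Pparg and the most ribosomal protein RNA of the tissue. In the 495 epigonadal Ad IIc nuclei with 3 or more adipocyte and no endothelial markers, Cebpa was at 673 CPM and Pparg at 340.5 CPM.

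Cebpb, an early factor of the cascade and of inflammatory responses, had 8 UMIs in all thymic labels together (15.0 CPM). Its epigonadal levels were 69.6, 99.8, 57.4, 28.4 and 178 CPM from Ad Ia to Ad IIc, and Ad IIc was at a log2 ratio of 1.07 over Ad I (0.41 to 1.84). Over Ad Ib, the next highest, the ratio was 0.79 (−0.04 to 1.84), so the top of the order is not resolved. Cebpd, its early partner, had 7 UMIs in thymic labels, 6 of them in Ad IIa, and 53 in epigonadal labels (24.6 CPM). Klf15, a glucocorticoid-responsive factor of lipid metabolism, had 1 UMI in thymic labels and 36 in epigonadal labels (16.7 CPM). These counts do not order Cebpd or Klf15 among thymic labels.

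The same label was then set side by side between tissues. In Ad I, Pparg was 0.68 higher on the log2 scale in the thymic library (0.27 to 1.05) and Ebf2 was 1.83 higher (1.24 to 2.40). The unlabelled profile was estimated at 10.0% of thymic and 25.7% of epigonadal Ad I UMIs, and at 7.33% and 16.3% in Ad Ia. Its part in these ratios was not tested. In nuclei with at least 1000 UMIs, 9 of 84 thymic Ad I nuclei, the Ebf2 ratio was 0.63 from 5 thymic UMIs. Ebf1 was at 0.21 (−0.02 to 0.44). Cebpa was at −1.07 (−4.48 to 0.63), from 2 thymic against 26 epigonadal UMIs, and Cebpb at −1.57 (−7.49 to 0.51), from 1 against 22. Cebpd had 0 against 5 UMIs and Klf15 0 against 8. Of the 5 genes with 10 UMIs, 1 was more than 2-fold higher, where 15.2% of 5346 genes were, and 2 were more than 2-fold lower, where 17% were. The intervals of those 2, Cebpa and Cebpb, include 0.

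Ebf2 was higher in the thymic nuclei of both parts of Ad I, and Pparg beyond its interval in Ad Ib. For Ad Ia the thymic over epigonadal ratio was 1.44 (0.48 to 2.31) for Ebf2 and 0.37 (−0.22 to 0.90) for Pparg. For Ad Ib it was 2.15 (1.35 to 2.93) for Ebf2 and 1.05 (0.46 to 1.59) for Pparg. Ebf1 was at 0.98 (0.63 to 1.32) in Ad Ib and at −0.28 (−0.62 to 0.03) in Ad Ia, where the interval includes 0. The Ad Ib sums also differed in markers, thymic against epigonadal, at 9804 and 17305 CPM for adipocyte, 3132 and 2353 CPM for endothelial and 244 and 990 CPM for fibroblast markers. The unlabelled profile was estimated at 13.1% and 37.0% of their UMIs, and its part and that of the markers were not tested. In Ad Ia 1 of 5 genes was past 2-fold upward and 0 downward, where 16.4% and 18.3% of all genes were. In Ad Ib 2 of 5 were past it upward and 2 downward, where 21.4% and 16% were. The 2 downward, Cebpa and Cebpb, had 0 thymic UMIs against 11 and 12, and with 3 counts allowed for the 0 their ratios were 0.42 and 0.29, so they show no direction. In nuclei with at least 1000 UMIs, of which 7 thymic Ad Ia and 2 thymic Ad Ib nuclei remain, 0 genes with 10 UMIs were past 2-fold in either label. TMM scaling moved the median of all genes by −0.34 for Ad Ia and −0.39 for Ad Ib, and left 1 of the 5 past 2-fold upward in Ad Ib.

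In Ad IIa the tissues differed in Cebpa and Cebpb more than in Pparg or Ebf1. Pparg was at a log2 ratio of 0.24 (0.13 to 0.35), thymic over epigonadal, and Ebf1 at 0.01 (−0.10 to 0.12). Cebpa was lower at −3.15 (−4.93 to −2.03), from 5 against 150 UMIs, and Cebpb at −2.08 (−3.87 to −0.91), from 5 against 71. Cebpd was at −0.35 (−2.01 to 0.89) and Ebf2 at −0.52 (−3.13 to 1.12). Klf15 had 1 thymic UMI against 14, at −1.65 (−7.59 to 0.53). Of the 7 genes 0 were more than 2-fold higher, where 5.44% of 9775 genes were, and 3 were more than 2-fold lower, where 16.2% were.

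Adipocyte markers moved with this Cebpa difference. Their thymic Ad IIa sum was 969 CPM (12 of 14 with UMIs, Lep and Slc2a4 at 0) and their epigonadal sum 6931 CPM (14 of 14), and their part in the result was not tested. When the profile of unlabelled barcodes was subtracted, Pparg in Ad IIa turned to −0.072 while Cebpa stayed at −2.69. Epigonadal barcodes led by endothelial markers held 46.7% of the Pparg UMIs in that profile, so the subtraction also removes their RNA. The nuclei without adipocyte marker UMIs held 288 thymic and 9 epigonadal UMIs of Pparg, and 1 and 0 of Cebpa. Cebpa cannot be compared between the tissues there, and Pparg rests on only 9 epigonadal UMIs. The plot of log2 ratios sets these values side by side.

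**Figure D2:**
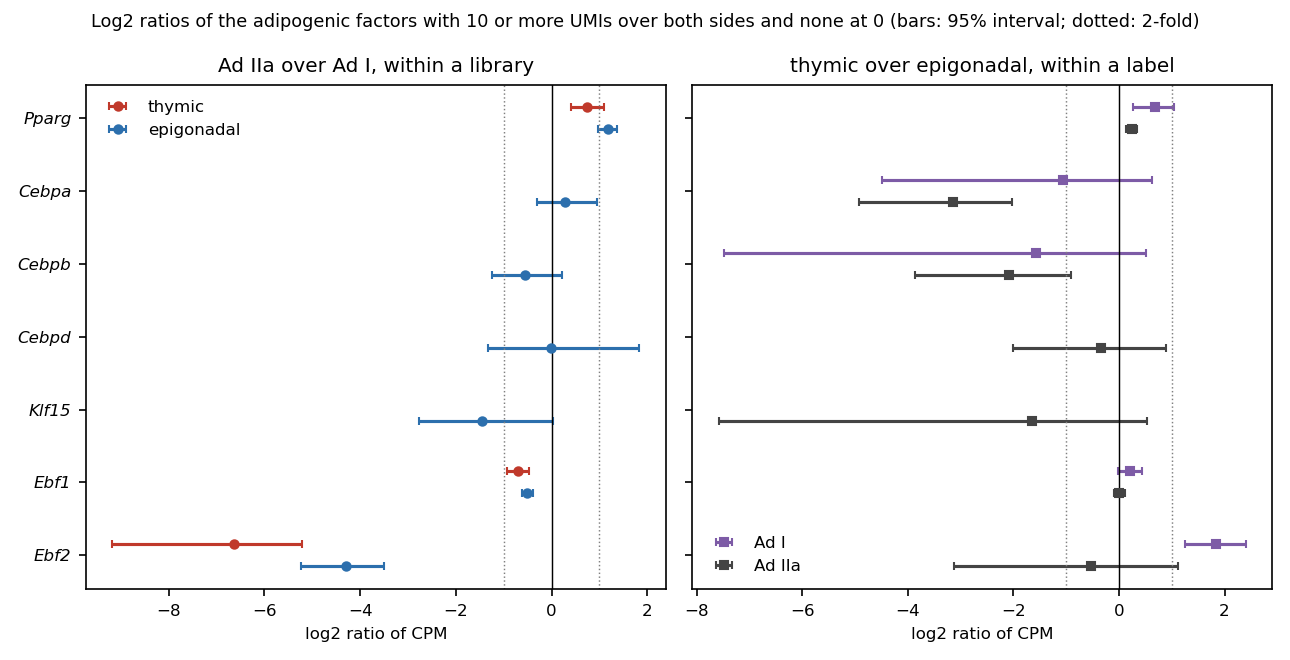
Log2 ratios of CPM for the genes with 10 or more UMIs over both sides, for Ad IIa over Ad I within each library and for thymic over epigonadal within labels. Points carry 95% intervals and dotted lines mark 2-fold. Pparg lies right of 0 and Ebf2 far left of it in Ad IIa over Ad I in both libraries, at 0.73 and −6.64 in the thymic one.

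The labels Ad IIb and Ad IIc complete this view. In Ad IIb, where 2 of the genes had 10 UMIs, Pparg was at 0.54 (0.06 to 0.98) and Ebf1 at 0.56 (0.26 to 0.84), thymic over epigonadal. Neither was past 2-fold, where 16.4% of genes were higher and 13.4% lower. In Ad IIc Pparg was at 2.17 (1.78 to 2.55), Ebf1 at 1.41 (0.97 to 1.82) and Cebpb at −1.96 (−5.34 to −0.38). Cebpa had 0 thymic against 331 epigonadal UMIs, so with 3 counts allowed for the 0 its thymic level was at least 11.6-fold lower. In Ad IIc 2 of 7 genes were past 2-fold upward and 5 downward, where 32.7% and 32% of 6481 genes were. Of the 5, Cebpd, Klf15 and Ebf2 had 0 thymic UMIs against 18, 14 and 19, and with 3 counts allowed for the 0 their ratios were 0.66, 1.03 and 0.59, so they show no direction. The opposite marker sums of the 2 Ad IIc groups, given above, stand beside each of these values, and their part was not tested. Over all labelled nuclei, whose mix of labels differed, 1 of the 7, Ebf2, was past 2-fold upward, where 8.12% of 11306 genes were, but its ratio turned to −0.66 in nuclei with at least 1000 UMIs. Cebpa, Cebpb and Klf15 were past it downward, where 20.2% were.

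Most barcodes had no label: 22235 in the thymic library, with a median of 308 UMIs, and 3479 in the epigonadal library, with 794. A barcode was put in a class where it had UMIs of 3 or more markers of that class and of more of them than of any other, which is a range of a score and not a cell type. Of 745 thymic barcodes in the adipocyte class 409 had exactly 3 markers, and of 389 in the endothelial class 120 had. Median barcodes of these classes had 1 marker of another class at most. Of the epigonadal barcodes, 180 of 2000 adipocyte and 16 of 201 endothelial barcodes had exactly 3, and the median endothelial barcode had 5 markers of another class.

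Pparg in these unlabelled barcodes was again at its highest in the endothelial class. It was at 1600 CPM (1468 to 1739) in thymic endothelial and 1286 CPM (1153 to 1431) in thymic adipocyte barcodes, and at 1639 CPM and 492 CPM in the epigonadal classes. Fibroblast, B-cell and T-cell barcodes had 45.2, 8.68 and 46.1 CPM in the thymic library. Epigonadal barcodes of these classes were at 136, 41.3 and 88.1 CPM, and macrophage barcodes at 328.5 CPM. The endothelial class held 31.3% of all unlabelled thymic Pparg UMIs and 46.7% of the epigonadal ones, and barcodes with no class held 44.7% and 9.74%, at 324 and 428 CPM. Of all nuclear-encoded UMIs without a label, 4603069 thymic and 3777938 epigonadal, the endothelial class held 341972 and 669380. Barcodes with no class held 2409722 and 534956 of them. The plot of unlabelled classes shows these levels beside those of Ebf1 and Ebf2.

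The other genes had other peaks. Ebf1 was highest in B-cell barcodes, at 4636.5 thymic and 4416 epigonadal CPM, with 1872 and 2006 CPM in endothelial and 85.9 and 80.1 CPM in T-cell barcodes. Ebf2 was at 658 CPM in thymic adipocyte and 633 CPM in thymic fibroblast barcodes, but at 74.0 and 1280.4 CPM in the epigonadal classes. The 176 epigonadal fibroblast barcodes held 62.1% of unlabelled Ebf2 UMIs, and 256947 of the 3777938 nuclear-encoded UMIs of unlabelled epigonadal barcodes. Ebf2 in endothelial barcodes was at 14.6 and 22.4 CPM, beside 13.3 CPM in thymic T-cell barcodes. Cebpa was at 87.5 CPM in thymic and 325 CPM in epigonadal adipocyte barcodes, and at 8.77 and 121 CPM in endothelial ones. The epigonadal adipocyte class held 76.6% of unlabelled Cebpa UMIs, and 1730374 of the 3777938 nuclear-encoded UMIs of unlabelled epigonadal barcodes.

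**Figure D3:**
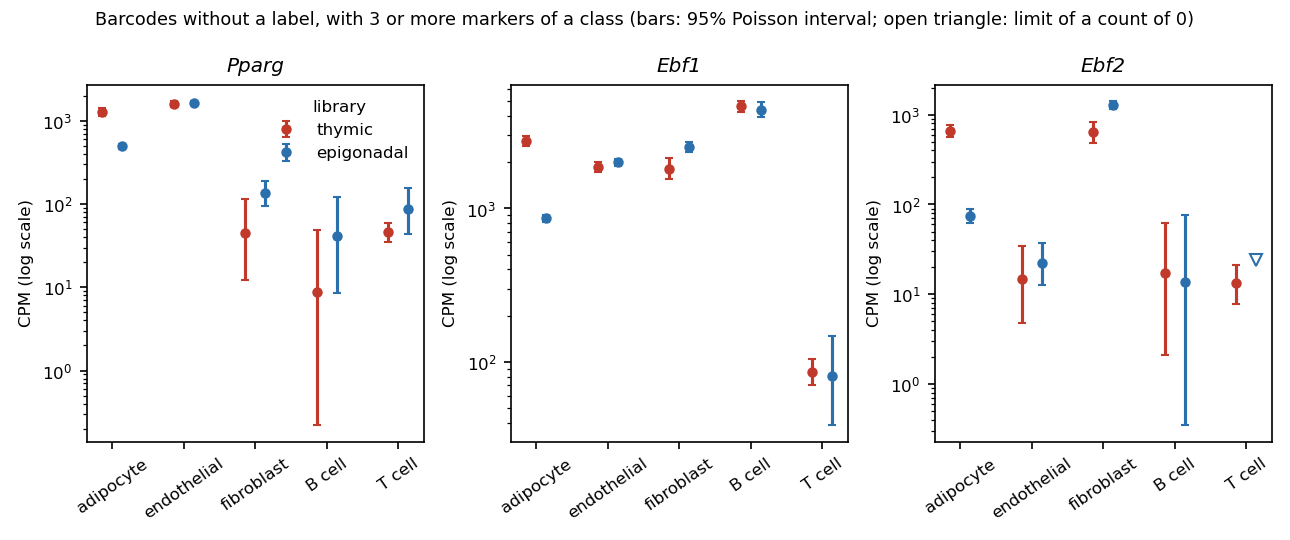
RNA level (CPM, log axis) in unlabelled barcodes with 3 or more markers of a class, for both libraries, with 95% Poisson intervals. Open triangles are the limit of a count of 0. Pparg is highest in endothelial barcodes, at 1600 and 1639 CPM, Ebf1 in B-cell barcodes and epigonadal Ebf2 in fibroblast barcodes at 1280.4 CPM.

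Cebpb was at 145 CPM in thymic and 141 CPM in epigonadal adipocyte barcodes. The level in thymic labelled nuclei was below that in unlabelled barcodes, at a log2 ratio of −1.58 (−2.89 to −0.66). Pparg went the other way, with log2 ratios of 2.52 (2.41 to 2.63) for thymic and 1.20 (1.13 to 1.28) for epigonadal nuclei. Of the 7 genes, 2 thymic and 1 epigonadal were more than 2-fold higher in labelled nuclei, where 16.6% and 5.08% of genes were. In each library 1 was more than 2-fold lower, where 23.8% and 14.9% were. Mitochondrial UMIs were 51.2% in unlabelled thymic barcodes and 12.8% to 15.2% in thymic labels, and their part in these ratios was not tested.

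RNA was sparse for Ppard and for the retinoid X receptors that pair with PPARG. Rxra, which encodes its usual dimer partner, had 18 UMIs in thymic Ad IIa and 2 in Ad I (log2 −0.05, −1.83 to 3.38), and 52 and 23 in the epigonadal labels (−1.07, −1.79 to −0.28). Rxrb had 8 and 0 thymic and 19 and 3 epigonadal UMIs, and Rxrg 0 and 0, and 5 and 2. Ppard, a more widely made PPAR, had 16 and 4 thymic UMIs and 60 and 21 epigonadal UMIs, at log2 ratios of −1.07 (−2.57 to 1.10) and −0.74 (−1.45 to 0.08). Ppara, the PPAR of fatty acid oxidation, went opposite to Pparg: 7 UMIs in thymic Ad IIa against 89 in Ad I (−6.52, −7.97 to −5.51), and 2 against 74 in the epigonadal library (−7.13, −10.5 to −5.53).

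Genes known as PPARG targets in fat cells were lower more often than higher in Ad IIa, the label with the highest Pparg level. The list shares 11 of its 30 genes with the 14 adipocyte markers that checked the labels. That part of the counts repeats the marker check. Of 30 listed, 27 had 10 UMIs in the thymic contrast of Ad IIa with Ad I, and 5 were more than 2-fold higher, where 28.2% of all genes were, and 20 more than 2-fold lower, where 20.2% were. Their median log2 ratio was −3.03, against 0.08 over all genes. With a minimum of 50 UMIs in place of 10, 13 targets could be read and 7 were lower, where 9.52% of all genes were. Plin1, a lipid droplet coat protein, was at −6.31, and Dgat2, which makes triglyceride, had 1 UMI against 21. Fabp5, a fatty acid binding protein, had 72 against 0, and Aqp7, a glycerol channel, was at 1.99. Among epigonadal labels 5 of 29 were higher, near the 19.8% of all genes, and 12 lower, where 17.5% of all genes were, with a median of −0.36 against 0.07. The lowest there were Acsl1 at −3.06 and Dgat1 at −2.90, and the highest Fabp5 at 2.54 and Cd36, a fatty acid transporter, at 1.95.

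Fatty acid handling genes of capillary endothelium were mostly higher in Ad IIa, as Pparg was. Of 14 tested of 16 in the thymic library, 11 were more than 2-fold higher, where 28.2% of all genes were, and 2 lower, where 20.2% were. The median was 1.84, or 1.66 with the gene at 0 set at 3 counts, against 0.08 over all genes. Aqp1, a water channel, was at 3.19, and Lpl, a lipase, and Angptl4, its inhibitor, were at −1.52 and −1.47. Among epigonadal labels 11 of 15 were higher and 0 lower, where 19.8% and 17.5% of all genes were, with a median of 1.90 against 0.07. Gpihbp1, which carries the lipase on capillary cells, was at 4.41 and Aqp1 at 3.04, and Slc27a4 and Lpl were the lowest at −0.51 and −0.36. Of the 30 targets 6 are also among the 16 capillary genes, and none of the capillary genes is among the endothelial markers used to check the labels.

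Other regulators of the cascade were read against the same shares of all genes past 2-fold in Ad IIa over Ad I, 28.2% higher and 20.2% lower among thymic labels and 19.8% and 17.5% among epigonadal labels. Among other C/EBP, EBF and KLF genes, 7 of 11 tested thymic and 8 of 13 tested epigonadal genes were more than 2-fold higher in Ad IIa and 0 were lower, with medians of 1.22 and 1.14. Klf7 was highest in both, at 2.95 and 3.11, followed by Klf13 at 2.89 in thymic nuclei and Klf2, a shear-stress factor of endothelium, at 2.26 in epigonadal nuclei. Of pro-adipogenic regulators, 3 of 20 were higher and 10 lower among thymic labels, and 2 of 25 higher and 8 lower among epigonadal labels. Mlxipl, the carbohydrate-response factor, had 0 against 33 thymic UMIs and was at −4.71 in the epigonadal library. Of PPARG coregulators, 0 of 17 and 0 of 19 were higher, and 6 and 4 were lower, the latter near the share of all genes. Ppargc1b, a coactivator of oxidative genes, was at −5.49 and −4.80, and Nrip1, a corepressor, at −2.53 and −2.60. Anti-adipogenic regulators had 7 of 14 higher and 2 lower in the thymic library, with a median of 1.0 that became −0.29 with genes at 0 set at 3 counts. Among epigonadal labels 6 of 17 were higher and 4 lower, with Gata2 at 2.12 and Nr2f2, a venous endothelial factor, at 1.88.

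Between tissues the targets were mostly lower in thymic Ad IIa. Of 29 tested, 1, Cidea at 2.19, was more than 2-fold higher, where 5.44% of all genes were, and 19 were more than 2-fold lower, where 16.2% were. The adipocyte markers, which hold 11 of the 30 targets, summed to 969 thymic and 6931 epigonadal CPM there, and the unlabelled profile was estimated at 5.30% and 32.0% of UMIs. Their part in the lower targets was not tested. The targets' median was −2.42, or −1.42 with genes at 0 set at 3 counts, against −0.02 over all genes. Retn and Plin4, an adipokine and a droplet coat, were at −6.07 and −5.60, and Cd36 was at 0.00. Of 15 capillary genes 0 were higher and 1, Angptl4 at −2.46, was lower, with a median of 0.04. In Ad I, where 15.2% of all genes were more than 2-fold higher and 17% lower, the counts of targets lay near those shares: 5 of 28 were higher, led by Cidea at 4.21 and Pdk4 at 2.05, and 6 lower, with Cidec at −2.04 and Fabp5 at 0 against 15 UMIs. The median there was 0.17 against 0.08. Of 17 coregulators in Ad I 3 were higher and 0 lower, with Ppargc1b at 2.86.

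Genes most like each member were found over 12 sums, the 5 labels and the unlabelled barcodes of both libraries. The measure was Pearson's r of log2(CPM + 10), given as a description, since sums of 1 library share their depth and free RNA. Pparg was most like Cdc42bpa (0.968), a kinase of the cytoskeleton, Card10 (0.949) and Grb10 (0.949), an adaptor of insulin signalling. Cdc42bpa was at 697.5 CPM in thymic Ad IIa and 478.5 CPM in epigonadal Ad IIa, its highest label in each. Cebpa was most like Cd63 (0.975), Rarres2 (0.971), the gene of the adipokine chemerin, and Gsta3 (0.965). Cebpb was most like Bag1 (0.958), Retn and Psma5. Ebf1 was most like Rora, Gnaq and Atrnl1, at 0.942, 0.918 and 0.916, and Ebf2 like Svep1, Nrg4 and Stau2, at 0.939, 0.938 and 0.927. Cebpd (Tmem234, Psmb9 and Rab5if, 0.881 to 0.854) and Klf15 (Alad, Hoxc8 and Nnat, 0.902 to 0.870) rest on few UMIs. Cebpa and Cebpb had 7 and 8 UMIs in thymic labels, and Cd63, Rarres2 and Gsta3 had 5, 2 and 1. The thymic label sums behind these r values were therefore near 0. Among the members themselves r was 0.87 for Cebpa with Cebpb, 0.75 for Cebpa with Klf15, 0.72 for Pparg with Ebf1 and 0.69 for Cebpb with Klf15. It was −0.69 for Pparg with Cebpb, −0.66 for Cebpb with Ebf1 and −0.61 for Pparg with Cebpa, and between −0.49 and 0.47 for the other pairs.

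Chromatin was read from the 6-month female thymi, as fragments over the gene and 2 kb on either side, scaled to 1000000 fragments of a label (FPM). The authors' labels there were thyAD I (146 nuclei, 1646902 fragments), thyAD II (140 nuclei, 2189613 fragments) and Immune (31 nuclei, 561387 fragments). The labels do not say whether thyAD I and thyAD II are the Ad I and Ad II of the RNA table. Markers separated them little: 1 of 15 endothelial markers was more than 2-fold more accessible in thyAD II, near the 4.46% of all genes, with a median of 0.20. Of 14 adipocyte markers 0 differed past 2-fold in either direction, with a median of −0.10, and T-cell markers had a median of −0.32, with 2 of 13 above 0. By contrast, 13 of 14 T-cell markers were more than 2-fold higher in Immune than in thyAD I, where 9.51% of all genes were.

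All 7 genes had fragments in all 3 labels, as the plot of fragments over each gene shows. Median nuclei had 10105.5, 15057 and 16036 fragments in thyAD I, thyAD II and Immune. Pparg was at 266 FPM in thyAD I (438 fragments), 223 FPM in thyAD II (489) and 142.5 FPM in Immune (80). The log2 ratio of thyAD II to thyAD I was −0.25 (−0.44 to −0.06), so the gene was slightly less covered in thyAD II. Cebpa was at 147.6, 101.4 and 74.8 FPM in thyAD I, thyAD II and Immune, and its ratio was −0.54 (−0.81 to −0.27). Cebpb was at 122.7, 80.4 and 69.5 FPM, at −0.61 (−0.91 to −0.31). The C/EBP genes that were near their detection limit in thymic RNA had fragments in both thyAD labels of the other library, but in thyAD II they were not set apart from the Immune nuclei. Immune over thyAD II was −0.42 (−0.95 to 0.04) for Cebpa, −0.20 (−0.75 to 0.30) for Cebpb and −0.14 (−0.93 to 0.53) for Cebpd.

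Klf15 followed, with 137.8, 105.5 and 64.1 FPM and a ratio of −0.39 (−0.66 to −0.12). Ebf2 was at 248, 203 and 117.6 FPM, at −0.29 (−0.49 to −0.09). The large Ebf2 difference between the RNA labels has no counterpart of that size here. Ebf1 was at 458, 471 and 269 FPM, at 0.04 (−0.10 to 0.18), and Cebpd at 37.0, 42.0 and 37.4 FPM, at 0.18 (−0.30 to 0.67). Of the 7 genes 0 were past 2-fold in either direction, where 4.46% of 27859 genes were higher and 2.99% lower, with a median of 0.02.

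**Figure D4:**
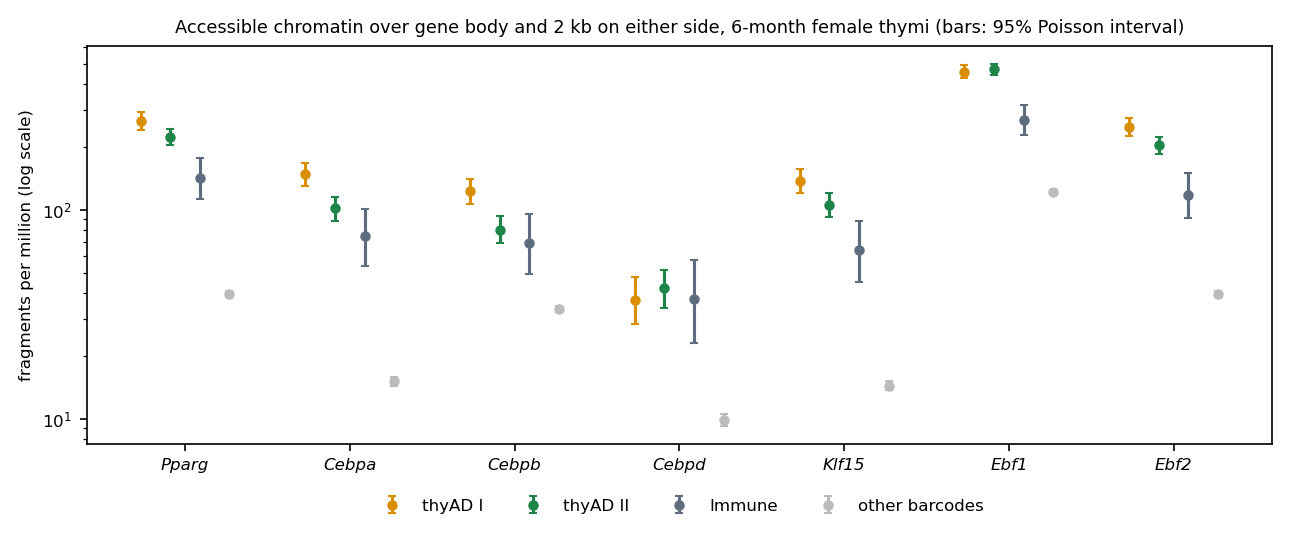
Fragments per 1000000 (FPM, log axis) over each gene and 2 kb on either side in thyAD I, thyAD II, Immune and the other barcodes of the 6-month female thymi, with 95% Poisson intervals. Pparg lies at 266 in thyAD I and 223 in thyAD II, the intervals of these labels do not overlap at Cebpa, Cebpb, Klf15 and Ebf2, and Immune lies below them except at Cebpd.

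Against the Immune nuclei the members were more open in thyAD I, with Cebpd as the exception. Immune over thyAD I was −1.09 (−1.65 to −0.59) for Klf15, −1.07 (−1.48 to −0.70) for Ebf2, −0.97 for Cebpa, −0.89 (−1.26 to −0.55) for Pparg, −0.81 for Cebpb and −0.77 for Ebf1. Cebpd was at 0.04. Of the 7 genes 0 were more than 2-fold higher in Immune, where 9.51% of 24618 genes were, and 2 were more than 2-fold lower, where 9.48% were. Against thyAD II, Immune was lowest for Ebf1 at −0.80 and Ebf2 at −0.78, with 0 of 7 past 2-fold in either direction, where 8.82% of genes were higher and 10.4% lower. The authors also numbered joint clusters of these nuclei. Within thyAD I, joint cluster 3 differed from joint cluster 1 in Cebpa at 0.59 (0.21 to 0.97) and in Ebf2 at −0.50 (−0.84 to −0.17), with 0 of the 7 past 2-fold. There 3.77% of genes were higher and 6.24% lower. Adipocyte markers moved with this, 12 of 14 being above 0 with a median of 0.37, and T-cell markers had a median of −0.65 with 3 of 10 more than 2-fold lower. Fragments at annotated starts were 40.6 per 100 in cluster 3 and 36.0 in cluster 1, and the part of these differences was not tested. Within thyAD II, all 7 intervals of cluster 4 over cluster 0 over the whole genes included 0, and 3.48% of genes were more than 2-fold higher and 3.47% lower. Within 1 kb of its start Cebpa was at −0.55 (−1.10 to −0.04) there. For cluster 3 over cluster 1 the starts of Cebpa and Cebpb were at 0.63 (0.15 to 1.10) and 0.58 (0.08 to 1.06). Intervals of the other starts in these 2 contrasts included 0.

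Accessibility was also read around each start of Pparg. Within 1 kb of start 1 there were 20 fragments in thyAD I and 44 in thyAD II, a log2 ratio of 0.71 (−0.07 to 1.57). At start 2, which is 1205 bp downstream so that the windows overlap, they were 43 and 47, at −0.28 (−0.91 to 0.35). At start 3, the one with the C/EBP matches, they were 74 and 74, at −0.41 (−0.90 to 0.07). All 3 intervals include 0. Counted as cut sites in 1 kb bins, the bin centred 1.235 kb from start 1, in the window of start 2, had 73 and 62, at −0.64. Both ends of a fragment count as cut sites and are not independent. No interval is given for cut sites for that reason. Start 3 had the highest level of the 3 in both labels, 44.9 FPM in thyAD I and 33.8 in thyAD II, against 12.1 and 20.1 at start 1 and 26.1 and 21.5 at start 2. In thyAD II the intervals of start 2 (15.8 to 28.5) and start 3 (26.5 to 42.4) overlapped. Immune nuclei had the same order, at 5.34, 8.91 and 19.6 FPM from 3, 5 and 11 fragments, so it was not particular to the thyAD labels. With windows of 1 kb around both gene ends in place of the gene body, the Pparg ratio turned to 0.61.

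**Figure D5:**
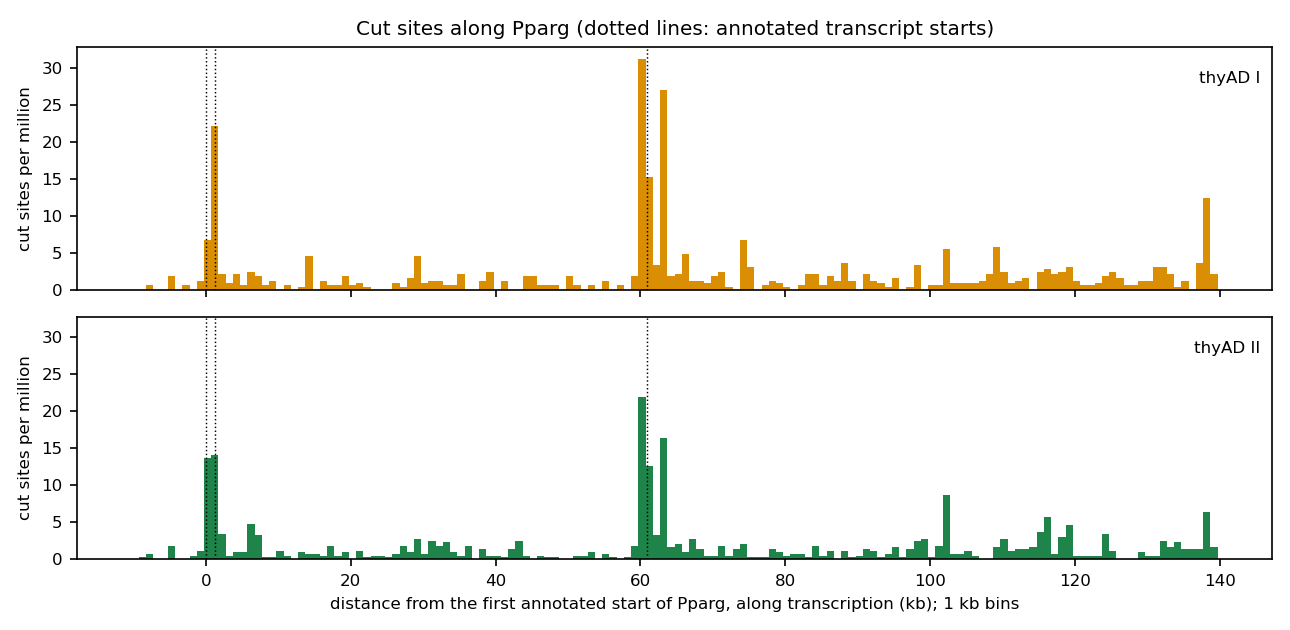
Transposase cut sites per 1000000 in 1 kb bins along Pparg for thyAD I and thyAD II, by distance from the first start (kb), with the 3 starts as dotted lines. The highest bin of thyAD I lies near start 3, at 31.3 cut sites per 1000000 against 21.9 in thyAD II.

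Along the gene, in the profile of cut sites, the bin with the most cut sites was centred 60.235 kb from the first start, just before start 3. It had 103 cut sites in thyAD I and 96 in thyAD II, a log2 ratio of −0.51. The interval from fragments around start 3 was −0.90 to 0.07. The window of 1 kb on either side of the Cebpa start had 158 and 146 fragments, at −0.52 (−0.86 to −0.19), and that of Cebpb 149 and 113, at −0.81 (−1.18 to −0.45). Klf15 had 79 and 72, at −0.54 (−1.03 to −0.07). At the second start of Ebf1 there were 41 and 27 fragments, at −1.0 (−1.77 to −0.28), and at its first start 39 and 56, at 0.11. Over 15369 starts 4.57% were more than 2-fold higher and 2.16% lower in thyAD II.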

How the data were processed

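The authors deposited raw counts of UMIs for each gene in each barcode (cellranger 7.2.0, per the file headers). No label or header states whether intron reads were counted. Per nucleus the authors deposited labels and the percent of mitochondrial UMIs. Chromatin fragments were on GRCm38, per the file headers. The submitters' processing notes name Cell Ranger ARC 2.0.2 and Seurat 5.1.0. Labels of 6-month nuclei came from the 317 complete rows of a table whose copy here breaks off in row 318, and these nuclei held 4.35% of fragments. The multiome RNA matrix was not used here.

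Counts were summed per library and label, with 0.5 added to each sum in a log2 ratio. Exact Poisson, binomial-split and Clopper-Pearson intervals cover counting error only. A gene was compared with 10 or more counts over both sides, and a fold of 2 was the call. A count of 0 allows 3 counts. Since each group was 1 library, nothing was tested between groups. No doublet caller was run beyond the authors' own classes, and 147 barcode sequences occurred in both RNA libraries, none of them labelled in both. Ratios were run on simulated independent Poisson sums of the observed sizes, with no variation between nuclei or libraries. Such sums check the calculation only, since the intervals rest on the same model.

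The members and lists were chosen with earlier results of these data known. Named genes were all 7 members, the PPAR and RXR partners, the 2 highest and 2 lowest of each list among genes with 10 UMIs, and the 3 genes most like each member among those with 100 labelled UMIs; examples were drawn from these. One gene listed among the other C/EBP, EBF and KLF genes had no match. Positions are from RefSeq, GRCm38.p6. Alternatives were TMM (edgeR 4.0.16), other scalings, filters on nuclei, subtraction of the unlabelled profile and other chromatin windows. Single-label, marker-split, cluster, Immune and start-window comparisons were added after seeing the data. Python 3.11.15 with scipy 1.17.1 was used.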

Additional observations from a re-analysis of the deposited data

How the results depend on the processing

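No paired analysis was possible because each group was 1 library, and no replicate could be left out. Of 363 ratios of single members under alternatives, 315 stayed within their interval, 45 moved beyond it and 3 reversed. Reversed means a change of sign where the main interval excluded 0. Other changes of sign are counted among those that moved or stayed. Of 196 list counts under a minimum of 1 or 50 UMIs 127 stayed within 1.5 times and 69 did not. With a minimum of 50 UMIs the lower counts in thymic Ad IIa over Ad I became 7 for targets, 3 for pro-adipogenic regulators and 3 for coregulators, the anti-adipogenic regulators higher there became 3 and those lower in the epigonadal contrast 1, and in Ad I between tissues 0 targets and 1 coregulator were higher. With a minimum of 1 UMI 8 anti-adipogenic regulators were lower in either contrast of Ad IIa with Ad I. The cause of each change below was not tested. The reversals were Pparg in Ad IIa between tissues at −0.072 with the unlabelled profile subtracted, Ebf2 over all labels between tissues at −0.66 in nuclei with at least 1000 UMIs, and Pparg chromatin at 0.61 with 1 kb around both gene ends. Some that moved also changed sign. Ebf2 in thymic labelled over unlabelled barcodes went from −0.39 to 1.19 with equal weight per nucleus. In nuclei with at least 1000 UMIs, between tissues, Ebf1 in Ad I went from 0.21 to −0.11. Cebpa in Ad Ib went from −2.23 to 1.30 there. With TMM scaling Pparg in Ad IIa over Ad I was 1.21 thymic and 1.51 epigonadal, and 1 member was more than 2-fold higher in the thymic contrast and 1 in Ad Ib between tissues. Without Malat1, Gm42418 and AY036118 in the scaling, 1 was higher in Ad Ib and 0 over all labels. With equal weight per nucleus Pparg over all labels was 0.90, and 2 thymic and 0 epigonadal members were lower in labelled than unlabelled barcodes.

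A minimum of 1000 UMIs left 9 of 84 thymic Ad I nuclei, and then 0 members were lower in thymic Ad IIa over Ad I, since Ebf2, at −4.95, fell under the minimum of 10 UMIs; 0 were higher or lower between tissues in Ad I and Ad Ib, 0 were higher in Ad Ia and over all labels, and Pparg over all labels was 0.42. With the unlabelled profile subtracted, which took 5.30% to 13.1% of thymic and 16.3% to 37.0% of epigonadal UMIs, Pparg in epigonadal Ad IIa over Ad I was 1.41, Pparg over all labels was 0.46, and 1 member was lower between tissues in Ad I and 0 in Ad Ib. With 5 UMIs added, 0 were lower in Ad I, Ad Ib and thymic labelled over unlabelled barcodes, and 2 were higher in Ad Ia. In nuclei without a UMI of the other class's markers, which kept 11 of 590 epigonadal and 80 of 231 thymic Ad IIa nuclei, Pparg in epigonadal Ad IIa over Ad I was 0.26, with 0 members higher and 1 lower, and 2 were lower in the thymic contrast. Between tissues in those nuclei, Pparg was 1.42 in Ad IIa, from only 9 epigonadal UMIs, with 1 member higher and 0 lower. In Ad Ib Pparg was 1.83, with 0 lower, and 1 was lower in Ad I. The share of nuclei with a Pparg UMI, thinned to 500 and 1000 UMIs, was 57.3% and 77.5% in thymic Ad IIa, 53.3% and 74.0% in epigonadal Ad IIa, and 37.6% and 62.2% in epigonadal Ad I, and at 1000 it was 85.7% of 7 thymic Ad I nuclei. All chromatin nuclei had at least 3000 fragments, so that alternative changed nothing. Tissue cannot be told apart from library, and sex and age differ between the RNA and chromatin libraries.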
